A study of Mus musculus with 26 samples.

Results

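MET and FGF receptor signalling was followed through 9 of the 55341 genes listed in 26 RNA-Seq libraries of C2C12 cells: the receptor tyrosine kinase gene Met and its ligand gene Hgf, the FGF receptor genes Fgfr1, Fgfr2, Fgfr3 and Fgfr4, and the FGF ligand genes Fgf2, Fgf7 and Fgf21. They were chosen by name, as the MET and FGF receptor pathway genes, and found by their Ensembl mouse gene identifiers paired with symbols by GENCODE. C2C12 is a mouse myoblast line that stops dividing and fuses into myotubes when serum is withdrawn. In the siRNA experiment, cells received siCtrl, siSMYD3#1 or siSMYD3#2, were transfected in growth medium a day before differentiation and again at its start, and were harvested at 0 h and 24 h, with 3 libraries in each of 6 groups. In the overexpression experiment, a control line carrying the empty pREV vector and SMYD3 CL5, a single clonal line carrying retroviral HA-Flag-tagged SMYD3, were harvested at the same times with 2 libraries in each of 4 groups. Growth medium held 15% fetal calf serum and differentiation medium 2% horse serum, and the study's methods call the libraries biological replicates.

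HGF is a ligand of muscle and connective tissues that is cleaved to its active form and binds MET, its only known receptor. In muscle, this pathway is known for drawing quiescent satellite cells into the cell cycle and for guiding migrating precursors in the embryo. FGF ligands bind FGF receptors together with heparan sulfate, or with a klotho protein for the endocrine ligands such as FGF21. Both kinds of receptor signal through adaptors to RAS and ERK, which keep myoblasts dividing and hold back differentiation, and both switch on genes that damp the signal, such as the Sprouty and dual-specificity phosphatase genes. SMYD3 is a lysine methyltransferase, and Met is a reported target of it in muscle.

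The siRNAs are shown because several of the differences below separated siSMYD3#1 from siSMYD3#2. Each guide strand of 19 bases is written 5′ to 3′, with the seed, bases 2 to 8, in capitals.
siCtrl: aCGUGACAcguucggagaa
siSMYD3#1: gUUGGGGUcacagcuguga
siSMYD3#2: uCAAAUCUucaaucaggcu
The longest coding transcript of each of 21901 genes was searched, and no other transcripts. The whole target of either siSMYD3 oligonucleotide was found in that of 1 gene, Smyd3 itself, and that of siCtrl in none. The match to the siSMYD3#1 seed, ACCCCAA, occurred at 2 places in the longest coding transcript of Met and at 1 place in those of Fgfr3, Fgfr4 and Fgf2, and 26.9% of 12620 tested coding genes held at least 1. For siSMYD3#2 the match AGATTTG occurred at 2 places in Fgf7 and 1 in Fgfr2, against 23.1% of genes. For siCtrl the match TGTCACG occurred at 2 places in Fgfr2 and 1 in Fgf7, against 7.9% of genes. These matches are letters in the transcripts, and their part in the differences described here was not tested.

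Library totals ran from 14315193 to 60398170 counts in the siRNA experiment and from 21124675 to 67853386 in the overexpression experiment. Levels are given as CPM, counts scaled to library size with TMM factors, and differences as log2 fold changes with their standard error (SE) from edgeR's quasi-likelihood test, with a Benjamini-Hochberg adjusted p under 0.01 as the threshold. Smyd3 itself stood at 17.8 to 21.6 CPM in siCtrl and 5.37 to 9.65 CPM in siSMYD3#2, but at 15.1 to 19.3 CPM in the libraries labelled siSMYD3#1, where the differences of -0.16 at 0 h and -0.24 at 24 h did not pass. In the libraries labelled SMYD3 CL5 it stood at 16.9 to 27.1 CPM at 0 h and 21.0 to 24.3 CPM at 24 h, against 16.7 to 19.2 CPM and 17.1 to 18.2 CPM with the vector, so the groups overlapped at 0 h and not at 24 h, and neither difference (0.29 and 0.36) passed. The species of the SMYD3 cDNA is not named in the sources used here, so whether counts of mouse Smyd3 include the transgene is not known. The study also assayed the knockdown by SMYD3 western blot and Smyd3 qPCR. It checked the tagged protein of its clones by western blot and immunofluorescence. Those assays are not part of these counts. In every siRNA group 1 library was extracted with TRIzol at passage 11 and 2 with NucleoSpin at passage 14, and extraction method and passage cannot be told apart. The myoblast marker Myod1 was present at 4.67 CPM or more in every library, and Myog, the myogenin gene, reached 55.6 to 262 CPM at 24 h in siCtrl, 5.64 to 19.8 CPM in siSMYD3#1 and 31.1 to 48.6 CPM in siSMYD3#2. In each siRNA group the TRIzol library was the lowest in both genes. In siCtrl at 24 h it held 9.25 CPM of Myod1 and 55.6 CPM of Myog, against NucleoSpin means of 18.8 and 242 CPM. Of the 14 markers of other cell types, 4 were detected in all libraries: Tubb3 (731 to 8789 counts), Cd68 (32 to 186), the epithelial keratin gene Krt8 (4 to 224) and the osteoblast gene Sp7 (2 to 53). The endothelial gene Cdh5 had up to 18 counts, Epcam and Ibsp had 0 in every library, and the others, Adipoq, Pecam1 and Ptprc among them, had at most 9. Of these 14, 4 could be tested in the siRNA fit, and 1, Krt8, rose over time in siCtrl (1.94). Of 11 myoblast and myotube markers 8 rose, beside 29.4% of all genes called in that contrast (14.6% higher). Since whole cultures were sequenced, fewer cells with a transcript and less transcript per cell cannot be told apart.

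Per kilobase of exon, which allows genes to be compared, Fgfr1 had the highest median level in each kind of library, at 19.1 CPM per kb in NucleoSpin siRNA libraries, 16.4 in TRIzol siRNA libraries and 20.7 in overexpression libraries. In the same order of libraries, Met stood at 14.8, 10.1 and 13.9 CPM per kb and Hgf at 10.3, 10.2 and 8.72. The other 3 receptors were near the lower end, with Fgfr3 at 0.31, 0.302 and 0.239 CPM per kb, Fgfr4 at 0.274, 0.309 and 0.0779, and Fgfr2 at 0.00875, 0.15 and 0.0571. Fgfr4 stood slightly above Fgfr3 in the TRIzol siRNA libraries alone, and below it in the NucleoSpin and in the overexpression libraries, which are also TRIzol. The ligands Fgf7 and Fgf21 did not hold a fixed place: Fgf7 stood at 1.66, 12.2 and 17.8 CPM per kb, above Met and Hgf in both kinds of TRIzol library, and Fgf21 at 11.6, 0.121 and 0.79, above Hgf in the NucleoSpin libraries. In the NucleoSpin libraries the ranges of Fgfr1, Met, Hgf and Fgf21 over all groups met or overlapped that of a neighbour in this order, so it is a description. All 9 genes passed the low-count filter in the siRNA fit.

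**Figure D1:**
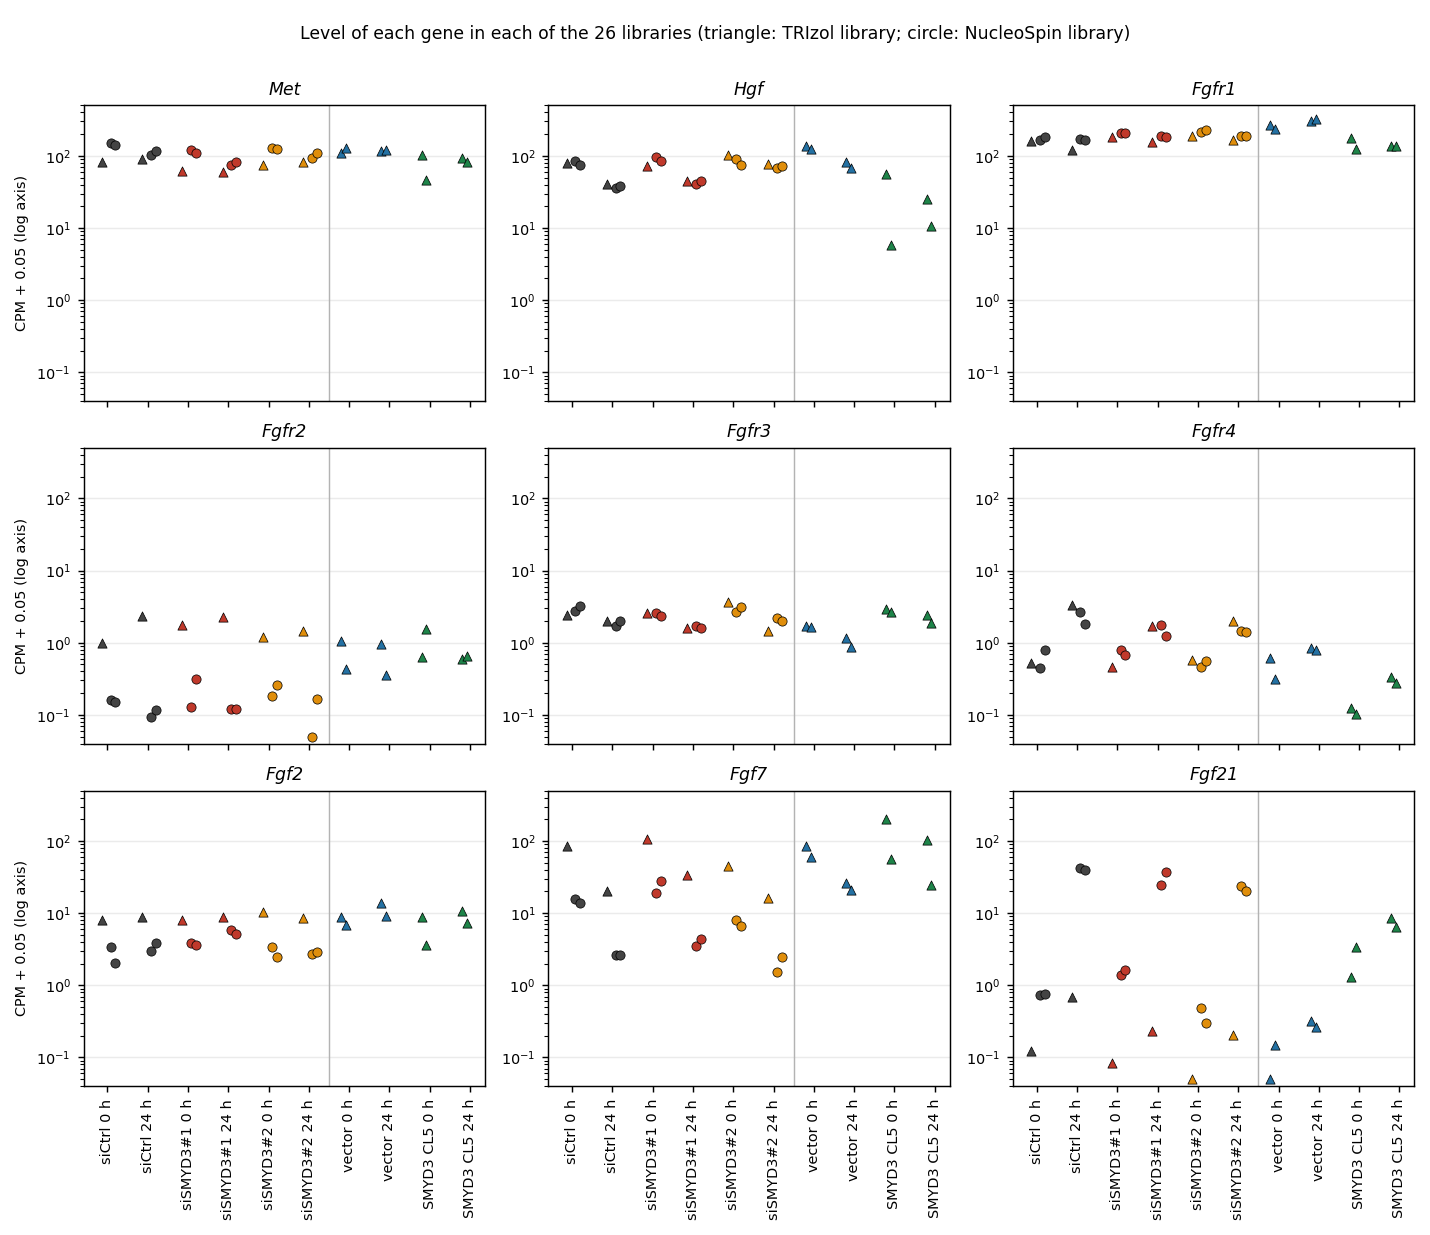
Level of each of the 9 genes in each of the 26 libraries, as CPM + 0.05 on a log axis, by group (triangles TRIzol, circles NucleoSpin; the grey line parts the siRNA from the overexpression experiment). Hgf and Fgf7 lie lower and Fgf21 and Fgfr4 higher at 24 h than at 0 h in siCtrl, and triangles and circles stand apart for Fgfr2, Fgf2, Fgf7 and Fgf21.

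Met, the HGF receptor gene, was lower in the libraries labelled siSMYD3#1 than in siCtrl at 24 h, and its change over time differed between the kinds of library. In siCtrl at 0 h it stood at 81.0 CPM in the TRIzol library and 149 and 142 CPM in the NucleoSpin libraries, and at 24 h at 90.5, 104 and 118 CPM. With the TRIzol library again first, the siSMYD3#1 libraries held 61.0, 119 and 108 CPM at 0 h and 59.6, 74.6 and 83.4 CPM at 24 h. The siSMYD3#2 libraries held 74.4, 128 and 124 CPM at 0 h and 81.4, 93.0 and 108 CPM at 24 h. At 24 h every siSMYD3#1 library lay below every siCtrl library, while the siSMYD3#2 libraries overlapped siCtrl.

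In the fit at 24 h, Met was lower in siSMYD3#1 than in siCtrl by a log2 fold change of -0.53 (SE 0.13, n = 3 against 3, adjusted p = 0.00824 by edgeR's quasi-likelihood test). It was 1 of 9 genes of the set past the threshold in that comparison, beside 5.85% of all genes tested (2.91% higher and 2.94% lower). Within the NucleoSpin libraries the difference was -0.50 and between the TRIzol libraries -0.60, so both kinds of library showed the same size. The call was narrow: it was lost in 12 of 18 fits with 1 library left out, where the difference ran from -0.63 to -0.40, and the adjusted p ran from 0.00014 to 0.545 over all the alternatives, the highest without the extraction term. The 6 fits that kept it left out the siCtrl 0 h TRIzol library, 1 of the siCtrl 24 h NucleoSpin libraries, the siSMYD3#1 0 h TRIzol library, the siSMYD3#2 0 h TRIzol library, or 1 NucleoSpin or the TRIzol library of siSMYD3#2 at 24 h. Smyd3 RNA did not pass in this contrast, as given above, and myogenic genes moved with it: 6 of 11 myoblast and myotube markers were lower.

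The other contrasts of Met did not pass. At 0 h siSMYD3#1 gave -0.37 (SE 0.12, adjusted p = 0.133 by edgeR), lower within both kinds of library (-0.35 and -0.41). With siSMYD3#2, in which Smyd3 RNA fell, the difference from siCtrl was -0.18 at 0 h (SE 0.12, adjusted p = 0.706) and -0.15 at 24 h (SE 0.12, adjusted p = 0.527). Set directly against siSMYD3#2 at 24 h, Met in siSMYD3#1 was -0.38 (SE 0.13, adjusted p = 0.0659), so a difference between the oligonucleotides was not established for it.

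Over time, Met changed by -0.20 in siCtrl (SE 0.12, adjusted p = 0.209), -0.37 in siSMYD3#1 (SE 0.13, adjusted p = 0.0266) and -0.17 in siSMYD3#2 (SE 0.12, adjusted p = 0.305), none past the threshold. The kinds of library differed here. In the NucleoSpin libraries the change over time was -0.38, -0.53 and -0.33 in the 3 siRNA groups, with both 24 h libraries below both 0 h libraries in each, whereas the TRIzol libraries gave 0.16, -0.03 and 0.13. That difference between kinds of library was 0.50 on the log2 scale (SE 0.10, adjusted p = 0.000946 by edgeR), in a term added after the data were seen, and 10.3% of all genes passed in it.

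In GENCODE, Met begins at chr6:17463800 on the plus strand (GRCm38, gene end 17573980). The 300 bases around its RefSeq start (build GRCm38.p6, chr6:17463707-17464006, plus strand) are shown because SMYD3 was reported to bind the DNA element CCCTCC, whose matches on either strand are in capitals.
Met promoter: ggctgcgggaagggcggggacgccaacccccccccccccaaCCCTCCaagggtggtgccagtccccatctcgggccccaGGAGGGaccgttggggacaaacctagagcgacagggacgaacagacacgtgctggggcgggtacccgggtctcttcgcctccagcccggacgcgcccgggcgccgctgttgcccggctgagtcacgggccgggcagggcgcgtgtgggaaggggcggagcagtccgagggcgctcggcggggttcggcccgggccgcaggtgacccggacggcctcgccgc
The 2 matches begin 209 and 171 bases before the RefSeq start. That start lies downstream of the GENCODE gene start, so the matches are nearer to the latter. At least 1 match was held by 39.2% of 32851 promoter windows of this length, so the element is common. Windows of Hgf, Fgfr2, Fgfr3, Fgfr4, Fgf2 and Fgf21 also held it, and that of Fgf7 held 0 matches, so it is not particular to Met. The study also names GAGGGG as a SMYD3 site, which was not searched for. Promoter windows were matched for 8 of the 9 genes, and none was used for Fgfr1.

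Hgf, which encodes the MET ligand, fell to about the same level on differentiation in siCtrl and siSMYD3#1 but stayed high in siSMYD3#2. In siCtrl it went from 78.7 CPM (TRIzol) and 83.6 and 74.5 CPM (NucleoSpin) at 0 h to 41.2, 36.1 and 38.0 CPM at 24 h. In siSMYD3#1 it went from 71.4, 95.3 and 85.5 CPM to 44.8, 40.1 and 44.9 CPM. In siSMYD3#2 it went from 102, 91.0 and 75.5 CPM to 75.9, 68.4 and 73.1 CPM. At 24 h all 3 siSMYD3#2 libraries lay above all 6 libraries of the other groups, which did not exceed 44.9 CPM.

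The fitted change over time was -1.04 in siCtrl (SE 0.11, adjusted p = 1.26e-06 by edgeR) and -0.96 in siSMYD3#1 (SE 0.11, adjusted p = 5.58e-06), and -0.31 in siSMYD3#2 (SE 0.11, adjusted p = 0.045), which did not pass. The siCtrl and siSMYD3#1 calls held in 18 of 18 fits with 1 library left out. Both were lost in 1 fit of all 26 libraries (adjusted p = 0.0786 and 0.114 by edgeR). At 24 h Hgf was higher in siSMYD3#2 than in siCtrl by 0.91 (SE 0.11, adjusted p = 0.00011), at 0.93 within NucleoSpin and 0.88 between TRIzol libraries. The call held in 18 of 18 fits with 1 library left out, between 0.88 and 0.98, but not in 1 fit of all 26 libraries (0.91, adjusted p = 0.378). Of the 9 genes 2 passed in that contrast, beside 3.7% of all genes (1.66% higher and 2.04% lower), and 5 of 11 myoblast and myotube markers were lower in it. Against siCtrl, Hgf in siSMYD3#1 was 0.17 (SE 0.11, adjusted p = 0.414), and the oligonucleotides differed from each other by -0.75 (siSMYD3#1 less siSMYD3#2, SE 0.11, adjusted p = 0.000504), 1 of 9 genes against 3.36% of all genes. That call was lost without the extraction term (-0.74, adjusted p = 0.0129) and in the fit of all 26 libraries (-0.74, adjusted p = 0.521). The test that the siSMYD3#2 effect was larger at 24 h than at 0 h gave 0.73 (SE 0.16, adjusted p = 0.0616) and did not pass, and 0 of the 9 genes passed in either such test by edgeR. At an unadjusted p under 0.05 these tests held 1 of the 9 genes for siSMYD3#1 and 2 for siSMYD3#2, beside 1388 and 1585 of all 15820. DESeq2 called 0 and 1 of the 9, beside 141 and 111 of all genes. The share of all genes called by edgeR was 0.215% and 0.019%.

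Of the FGF receptors, Fgfr1 was the most abundant. Its levels were 158, 166 and 182 CPM in siCtrl at 0 h (TRIzol first) and 122, 173 and 166 CPM at 24 h, 180, 206 and 209 CPM in siSMYD3#1 at 0 h and 153, 190 and 180 CPM at 24 h, and 189, 213 and 230 CPM in siSMYD3#2 at 0 h and 165, 189 and 188 CPM at 24 h. At each time the siSMYD3 libraries lay above the siCtrl library of the same extraction, and at 0 h every siSMYD3#2 library lay above every siCtrl library. None of the 4 differences passed: siSMYD3#1 gave 0.23 at 0 h (SE 0.08, adjusted p = 0.139 by edgeR) and 0.19 at 24 h (SE 0.08, adjusted p = 0.14), and siSMYD3#2 gave 0.32 at 0 h (SE 0.08, adjusted p = 0.062) and 0.24 at 24 h (SE 0.08, adjusted p = 0.0627). Over time siSMYD3#2 gave -0.22 (SE 0.08, adjusted p = 0.0384), also short of the threshold.

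Fgfr4, a receptor known for its expression in differentiating myoblasts, rose in all 3 siRNA groups from a low level. In siCtrl it stood at 0.479, 0.402 and 0.737 CPM at 0 h and 3.24, 2.59 and 1.76 CPM at 24 h. The siSMYD3#1 libraries held 0.406, 0.739 and 0.63 CPM and then 1.66, 1.7 and 1.2 CPM, and the siSMYD3#2 libraries 0.531, 0.414 and 0.506 CPM and then 1.92, 1.39 and 1.38 CPM. Every 24 h library lay above every 0 h library, and counts were low, from 11 to 92. The rise was 2.16 in siCtrl (SE 0.31, adjusted p = 1.93e-05 by edgeR), 1.38 in siSMYD3#1 (SE 0.33, adjusted p = 0.00282) and 1.71 in siSMYD3#2 (SE 0.33, adjusted p = 0.000844). The siSMYD3#1 rise was no longer called without its 0 h TRIzol library or without 1 of its 24 h NucleoSpin libraries, with differences from 1.04 to 1.63 and adjusted p from 0.000974 to 0.031 over the alternatives. At 24 h both siSMYD3 groups had lower values than siCtrl, by -0.72 (SE 0.29, adjusted p = 0.125) and -0.69 (SE 0.29, adjusted p = 0.163), which did not pass.

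The Fgfr4 window (GRCm38.p6, chr13:55152568-55152867, plus strand, from RefSeq) is shown with its E-boxes, CANNTG, the element that MyoD and myogenin bind, in capitals.
Fgfr4 promoter: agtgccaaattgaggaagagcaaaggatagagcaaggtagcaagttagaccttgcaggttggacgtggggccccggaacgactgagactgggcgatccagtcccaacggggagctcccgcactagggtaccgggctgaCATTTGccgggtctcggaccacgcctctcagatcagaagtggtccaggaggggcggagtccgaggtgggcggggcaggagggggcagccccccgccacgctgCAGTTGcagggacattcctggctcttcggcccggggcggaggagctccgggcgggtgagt
These 2 matches begin 112 and 10 bases before the RefSeq start. GENCODE begins the gene upstream of both, at chr13:55152640, so they lie within the gene as annotated there. At least 1 E-box on either strand was held by 72.3% of all windows.

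Fgfr3 drifted down with time without passing the threshold. It ranged from 2.26 to 3.57 CPM in the 0 h siRNA libraries and from 1.41 to 2.18 CPM in the 24 h libraries, so the times did not overlap. The change was -0.58 in siCtrl (SE 0.21, adjusted p = 0.0301 by edgeR), -0.62 in siSMYD3#1 (SE 0.21, adjusted p = 0.0282) and -0.76 in siSMYD3#2 (SE 0.21, adjusted p = 0.011). The annotation places 998 of its 7158 exon bases opposite those of another gene, G630022F23Rik, and the strand setting of the counting is not given in the sources used here. Fgfr2 had 24 to 73 counts in the TRIzol siRNA libraries and 0 to 6 in the NucleoSpin libraries, which is too few in the latter to follow it over time or treatment.

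Among the ligands, Fgf7, a growth factor of connective tissue that acts on epithelial FGFR2, fell with differentiation in every siRNA group. In siCtrl it went from 86.7 CPM (TRIzol) and 15.5 and 14 CPM (NucleoSpin) to 20.3, 2.59 and 2.55 CPM. In siSMYD3#1 it went from 106, 18.8 and 27.5 CPM to 33.8, 3.44 and 4.32 CPM, and in siSMYD3#2 from 45.2, 7.98 and 6.49 CPM to 16.4, 1.46 and 2.42 CPM. Within each kind of library siSMYD3#1 was highest, siCtrl next and siSMYD3#2 lowest at both times. The change over time was -2.33 in siCtrl (SE 0.21, adjusted p = 1.58e-07 by edgeR), -2.21 in siSMYD3#1 (SE 0.20, adjusted p = 5.16e-07) and -1.67 in siSMYD3#2 (SE 0.22, adjusted p = 2.58e-05).

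At 0 h Fgf7 was lower in siSMYD3#2 than in siCtrl by -0.99 (SE 0.19, adjusted p = 0.00973 by edgeR), 1 of 9 genes beside 0.531% of all genes. It was -1.03 within NucleoSpin and -0.94 between TRIzol libraries, but the call was lost in 14 of 18 fits with 1 library left out, with differences from -1.08 to -0.91 and adjusted p from 1.23e-09 to 1 over the alternatives. In the other direction, siSMYD3#1 gave 0.53 at 0 h (SE 0.18, adjusted p = 0.139) and 0.64 at 24 h (SE 0.21, adjusted p = 0.0618), neither past the threshold. The oligonucleotides differed from each other by 1.52 at 0 h (siSMYD3#1 less siSMYD3#2, SE 0.19, adjusted p = 0.000172), a call kept in 18 of 18 fits with 1 library left out but lost without the extraction term (1.36, adjusted p = 1) and in the fit of all 26 libraries (1.53, adjusted p = 0.14). At 24 h this difference was 0.98 (SE 0.22), at the threshold and not called. In that 0 h contrast 2 of 9 genes passed, beside 1.17% of all genes.

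Fgf21, an endocrine FGF released under metabolic and endoplasmic reticulum stress, showed the largest change over time of the 9 genes in the siRNA fit. In the NucleoSpin libraries of siCtrl it went from 0.695 and 0.72 CPM to 41.6 and 40.1 CPM. In siSMYD3#1 it went from 1.32 and 1.58 CPM to 24.7 and 37.0 CPM, and in siSMYD3#2 from 0.436 and 0.253 CPM to 23.5 and 20.5 CPM. The TRIzol libraries held 0.0736, 0.0338 and 0 CPM at 0 h, that is 2, 1 and 0 counts, and 0.633, 0.184 and 0.157 CPM at 24 h. The high values were thus in the NucleoSpin libraries, whose 24 h levels were 21.3 to 63.9 times those at 0 h.

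The fitted rise was 5.82 in siCtrl (SE 0.30, adjusted p = 1.51e-10 by edgeR), 4.33 in siSMYD3#1 (SE 0.29, adjusted p = 2.34e-08) and 5.85 in siSMYD3#2 (SE 0.33, adjusted p = 2.39e-09). Each rise was called in 18 of 18 fits with 1 library left out. None was called without the extraction term (adjusted p = 0.0437, 0.107 and 0.0787 by edgeR). At 24 h Fgf21 was lower in siSMYD3#2 than in siCtrl by -0.98 (SE 0.22, adjusted p = 0.0093), lower in both NucleoSpin libraries (-0.89). This call was lost in 15 of 18 fits with 1 library left out (-1.11 to -0.89), and the adjusted p ran from 3.31e-05 to 0.982 over the alternatives. For siSMYD3#1 at 24 h the difference was -0.53 (SE 0.22, adjusted p = 0.135). At 0 h the values were 0.96 for siSMYD3#1 (SE 0.35, adjusted p = 0.181) and -1.01 for siSMYD3#2 (SE 0.41, adjusted p = 0.364), and they differed from each other by 1.98 (SE 0.40, adjusted p = 0.00944). That call was lost in 14 of 18 fits with 1 library left out (1.73 to 2.49), with adjusted p from 3.9e-06 to 1.

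The Fgf21 window (GRCm38.p6, chr7:45615441-45615740, minus strand, from RefSeq) is shown because the stress factor ATF4 is a known regulator of this gene, and the match to its composite element TGATGNAA is in capitals, here read on the opposite strand.
Fgf21 promoter: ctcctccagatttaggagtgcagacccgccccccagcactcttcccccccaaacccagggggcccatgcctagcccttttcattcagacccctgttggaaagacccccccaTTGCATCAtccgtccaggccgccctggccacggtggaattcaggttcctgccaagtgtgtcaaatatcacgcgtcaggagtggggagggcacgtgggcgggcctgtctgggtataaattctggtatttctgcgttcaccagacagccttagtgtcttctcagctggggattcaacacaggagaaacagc
The match begins 139 bases before the start, and 4.0% of all windows held at least 1 on either strand.

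Fgf2, the basic FGF long used to keep myoblasts dividing in culture, did not change past the threshold in any contrast between groups. It ranged from 7.91 to 10.4 CPM in the TRIzol and 1.97 to 5.84 CPM in the NucleoSpin siRNA libraries. At 24 h the 2 NucleoSpin libraries of siSMYD3#1, at 5.84 and 5.16 CPM, lay above those of siCtrl (2.98 and 3.85 CPM) and siSMYD3#2 (2.67 and 2.83 CPM), with no such gap among the TRIzol libraries (8.8, 8.69 and 8.63 CPM). The fitted difference was 0.48 from siCtrl (SE 0.24, adjusted p = 0.23 by edgeR) and 0.65 from siSMYD3#2 (SE 0.24, adjusted p = 0.104). Nudt6 lies opposite 640 of the 6782 exon bases of Fgf2, so reads of the 2 genes may mix if strand was not used. The annotation also gives Hgf 484 exon bases and Fgfr2 314 that another gene shares on the same strand (Gm43489 and Ctbp2).

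Counted over the set, 4 of 9 genes passed over time in siCtrl, Fgf21 and Fgfr4 higher and Hgf and Fgf7 lower, beside 29.4% of all genes (14.6% higher and 14.8% lower). The same 4 passed in siSMYD3#1, beside 25.4% (12.7% in each direction), and 3 of them in siSMYD3#2, beside 19.0% (9.11% higher and 9.88% lower), where Hgf did not. The 3 time contrasts use separate libraries. At 0 h, 0 of 9 genes passed between siSMYD3#1 and siCtrl by edgeR, beside 1.43% of all genes. In that contrast 4 had an unadjusted p under 0.05, beside 2196 of all 15820 genes, and DESeq2 called 0, beside 523 of all genes. The siSMYD3 contrasts share the siCtrl libraries and are given side by side only.

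**Figure D2:**
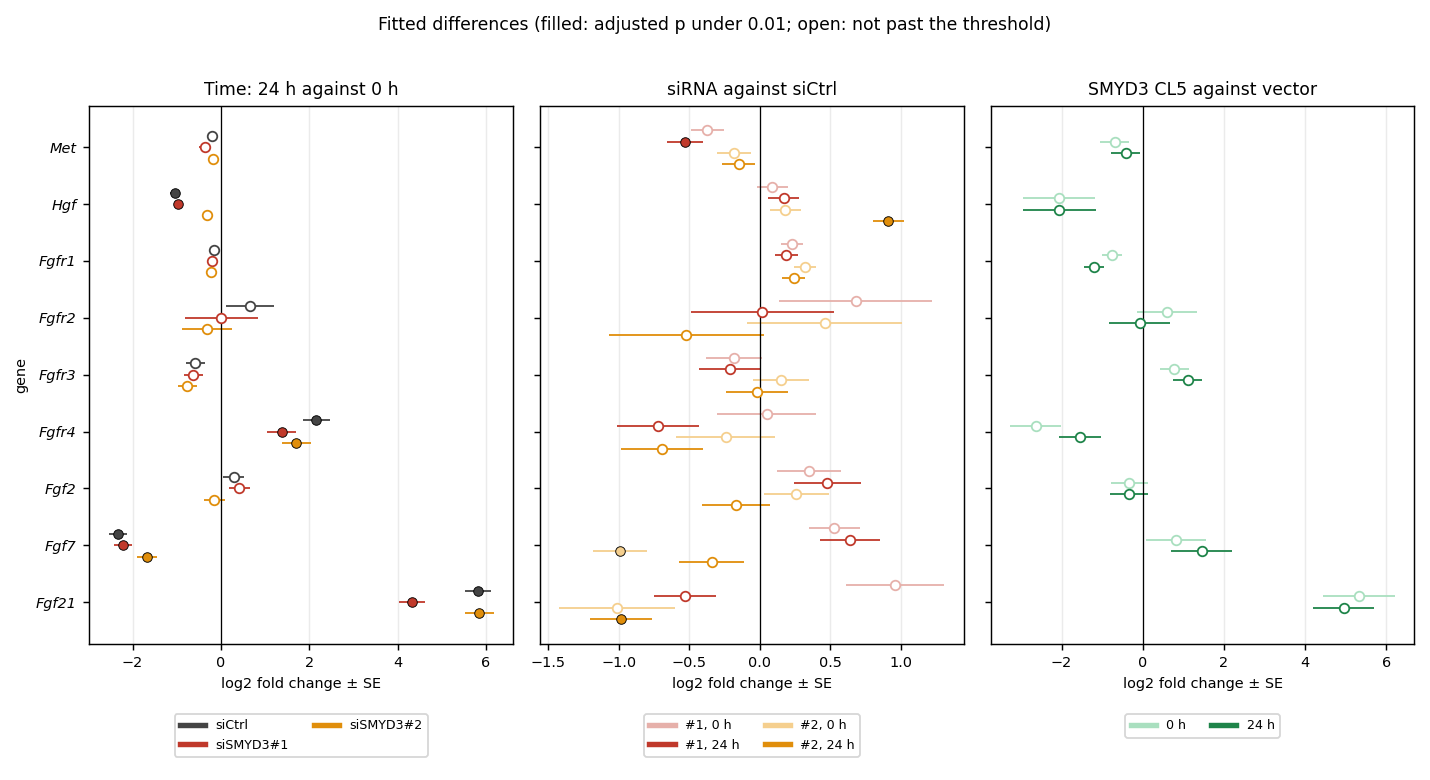
Fitted log2 fold changes with their SE for the 9 genes, over time in the siRNA groups (left), siSMYD3 against siCtrl (middle) and SMYD3 CL5 against vector (right), each panel on its own scale. Filled points passed an adjusted p under 0.01. Fgf21 shows the largest time changes, from 4.33 to 5.85, Met at -0.53 and Hgf at 0.91 are each called for a different siRNA, and no point is filled for SMYD3 CL5.

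Between TRIzol and NucleoSpin siRNA libraries many genes differed, the 9 genes among them. In the extraction term, a test added after the data were seen, 6 of 9 genes passed, near the background of 51.3% of all genes. Fgf21 was lower in TRIzol libraries by -6.45 (SE 0.26, adjusted p = 4.5e-13 by edgeR), Met by -0.58 (SE 0.08, adjusted p = 4.43e-06) and Fgfr1 by -0.25 (SE 0.05, adjusted p = 0.000202). Fgfr2 was higher in them by 3.80 (SE 0.30, adjusted p = 5.53e-09), Fgf7 by 2.72 (SE 0.11, adjusted p = 1.91e-12) and Fgf2 by 1.38 (SE 0.14, adjusted p = 9.78e-08). Hgf (0.05), Fgfr3 (-0.05) and Fgfr4 (0.14) were not called. The muscle intermediate filament gene Des moved with it too, at 67.3 to 140 CPM in the TRIzol and up to 1510 CPM in the NucleoSpin siRNA libraries.

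In the overexpression experiment 0 of 9 genes passed in any contrast by edgeR, with 2 libraries a group and a wider spread between libraries than in the siRNA experiment (common dispersion 0.0903 against 0.0159). In these counts the clone and the overexpression cannot be told apart, since SMYD3 CL5 is 1 clonal line. The study also reports raised differentiation markers in another clone, SMYD3 CL3. It further reports that siSMYD3 reversed the differentiation phenotype of SMYD3 CL5, and takes this to exclude clonal effects. Neither experiment is part of these counts. Between SMYD3 CL5 and vector, 3 of the 9 genes at 0 h and 4 at 24 h had an unadjusted p under 0.05, beside 3258 and 2488 of all 17835. DESeq2 called 1 and 2 of the 9, beside 1041 and 880 of all genes. The share of all genes called by edgeR was 1.07% and 0.964%. Over time edgeR called 0% of all genes with the vector and 0% in SMYD3 CL5. There 0 and 2 of the 9 genes had an unadjusted p under 0.05, beside 1256 and 1137 of all genes. DESeq2 called 0 of the 9 in each, beside 119 and 109 of all genes. Myog stood at 15.9 and 81.9 CPM in the 2 SMYD3 CL5 libraries at 0 h, against 0.283 to 0.535 CPM with the vector, and these 2 libraries also stood apart from each other in Hgf, Fgf7 and Met.

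Fgf21 had the largest fitted difference from the vector. It had 0 and 4 counts in the vector libraries at 0 h and 49 and 129 in SMYD3 CL5, that is 1.24 and 3.3 CPM, a ratio of pooled levels of 41.3 (95% exact interval from counting alone, 15.8 to 153). At 24 h it stood at 0.266 and 0.215 CPM with the vector and 8.5 and 6.36 CPM in SMYD3 CL5. The groups did not overlap at either time, and the fitted differences were 5.33 at 0 h (SE 0.89, adjusted p = 0.0217 by edgeR) and 4.95 at 24 h (SE 0.75, adjusted p = 0.0158). Over time Fgf21 changed by 2.1 with the vector (SE 0.96, adjusted p = 0.742) and 1.71 in SMYD3 CL5 (SE 0.64, adjusted p = 0.688).

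Fgfr1 and Fgfr4 lay below the vector. Fgfr1 stood at 269 and 235 CPM with the vector and 174 and 123 CPM in SMYD3 CL5 at 0 h, and at 307 and 319 CPM against 137 and 137 CPM at 24 h, without overlap at either time. Its differences were -0.76 (SE 0.24, adjusted p = 0.147 by edgeR) and -1.20 (SE 0.24, adjusted p = 0.0438). Fgfr4 had 18 and 11 counts with the vector and 3 and 2 in SMYD3 CL5 at 0 h, a ratio of pooled levels of 6.26 (95% exact interval from counting alone, 2.39 to 20.7), and 0.798 and 0.736 CPM against 0.284 and 0.23 CPM at 24 h. The fitted Fgfr4 differences were -2.64 (SE 0.63, adjusted p = 0.0684) and -1.54 (SE 0.52, adjusted p = 0.216). Fgfr4 nonetheless had more counts at 24 h than at 0 h in both lines, with changes of 0.89 (SE 0.50, adjusted p = 0.788) and 1.99 (SE 0.65, adjusted p = 0.66). Fgfr3 had higher values in SMYD3 CL5, at 2.93 and 2.64 CPM against 1.63 and 1.61 CPM at 0 h and 2.38 and 1.8 CPM against 1.13 and 0.813 CPM at 24 h, with differences of 0.78 (SE 0.35, adjusted p = 0.293) and 1.11 (SE 0.36, adjusted p = 0.185).

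Hgf stood at 136 and 124 CPM with the vector and 56.6 and 5.74 CPM in SMYD3 CL5 at 0 h, and at 83.0 and 68.7 CPM against 25.5 and 10.6 CPM at 24 h. The groups did not overlap, but the SMYD3 CL5 libraries lay far apart, and the differences of -2.06 (SE 0.89, adjusted p = 0.279 by edgeR) and -2.06 (SE 0.90, adjusted p = 0.367) did not pass. Over time with the vector, Hgf changed by -0.78 (SE 0.86, adjusted p = 0.927) and Fgf7 by -1.61 (SE 0.75, adjusted p = 0.747). Met held 110 and 129 CPM with the vector and 103 and 45.7 CPM in SMYD3 CL5 at 0 h, and 115 and 121 CPM against 93.7 and 82.5 CPM at 24 h, with differences of -0.69 (SE 0.36, adjusted p = 0.361) and -0.42 (SE 0.36, adjusted p = 0.721). Fgf7 held 85.0 and 59.3 CPM with the vector and 200 and 56.4 CPM in SMYD3 CL5 at 0 h, then 26.4 and 21.0 CPM against 105 and 24.5 CPM. Its groups overlapped at both times, with differences of 0.83 (SE 0.74, adjusted p = 0.581) and 1.45 (SE 0.75, adjusted p = 0.473).

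Leaving out the SMYD3 CL5 0 h library with 103 CPM of Met (replicate 1) left 1 library in that group. The fitted 0 h differences were then 5.92 for Fgf21, -4.45 for Hgf, -1.33 for Met and -0.98 for Fgfr1. The lone remaining library is assumed to vary like the other groups, so no calls are read from such fits. Without replicate 2 or replicate 1 of SMYD3 CL5 at 0 h, the 24 h differences were 4.97 and 5.0 for Fgf21. For Fgfr1 they were -1.18 and -1.15. For Fgf7 at 0 h, which overlapped between the groups, the difference was -0.30 without replicate 1 and 1.5 without replicate 2.

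The rest of the pathway was read from lists of named genes. Of 19 other FGF ligands, 3 could be tested in the siRNA fit. Fgf11, an intracellular FGF, rose over time in siCtrl by 1.44 (SE 0.18, adjusted p = 4.24e-06 by edgeR). Fgf5 was higher in siSMYD3#1 than in siCtrl at 24 h by 1.80, and was the ligand of this list called in that contrast. Of 9 genes for HGF activation and the MET family, 5 were tested. Mst1, which encodes the HGF-like ligand of the MET relative RON, rose over time in siCtrl by 1.65, and Plau, a protease known to cleave pro-HGF, was higher in siSMYD3#1 at 24 h by 0.59.

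Of 27 co-receptor and heparan sulfate genes 20 were tested, and 5 rose and 0 fell over time in siCtrl (median 0.29, against 0.03 over all genes), a smaller share than the 29.4% of all genes called. Flrt1, whose membrane protein binds FGF receptors, rose by 3.73 (SE 0.41, adjusted p = 1.37e-06 by edgeR), and the heparan sulfate proteoglycan gene Sdc2 by 1.31. At 24 h in siSMYD3#1, 4 of the 20 were higher than in siCtrl and 2 lower (median 0.27, against -0.00), beside 2.91% and 2.94% of all genes. Flrt1 was lower by -2.09 (SE 0.38, adjusted p = 0.00103), while Sulf1, a heparan sulfate sulfatase, and Sdc2 were higher by 0.65 and 0.57, each called in only 5 of 18 fits with 1 library left out. With siSMYD3#2, 0 of the 20 passed at 24 h by edgeR, beside 3.7% of all genes. An unadjusted p under 0.05 was held by 1, beside 3530 of all 15820 genes, and DESeq2 called 0, beside 1045 of all genes.

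All 28 genes of the adaptors and of the RAS, ERK and PI3K relay were tested, and 5 rose and 2 fell over time in siCtrl (median 0.01), also a smaller share than that of all genes. Stat3 rose by 1.07, the adaptor gene Gab2 by 0.72, and Hras fell by 0.60 on the log2 scale. In siSMYD3#1, Nras was lower than in siCtrl at 0 h (-0.56) and at 24 h (-0.36), and Gab1, the docking protein of MET, at 24 h (-0.47). The 24 h call of Gab1 held in 5 of 18 fits with 1 library left out and that of Nras in 13. In siSMYD3#2 at 24 h Braf was higher by 0.54, held in 7 of 18.

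All 21 feedback inhibitors and ERK-responsive genes were tested. Over time in siCtrl 4 rose and 7 fell (median -0.31, against 0.03 over all genes), beside 29.4% of all genes called. The phosphatase genes Dusp9 and Dusp5 changed by -2.35 (SE 0.13, adjusted p = 3.89e-10 by edgeR) and -2.30, and Spry1 rose by 2.27. At 24 h in siSMYD3#1, 1 gene of the list was higher than in siCtrl and 5 were lower (median -0.11, against -0.00). Of all genes 2.91% were called higher and 2.94% lower in that contrast. Spry4 was lower by -1.61 (SE 0.30, adjusted p = 0.00174), Etv1 by -1.23 (SE 0.20, adjusted p = 0.000509) and Il17rd by -0.79, the last held in 3 of 18 fits with 1 library left out, over which the number called lower ran from 1 to 5. With siSMYD3#2, 1 gene of the list, Dusp9, was called, higher by 0.70, and 0 were lower (median -0.23), beside 3.7% of all genes called. There 7 of the list had an unadjusted p under 0.05, beside 3530 of all 15820 genes, and DESeq2 called 2, beside 1045 of all genes. Over the settings other than leaving out a library, the number called lower ran from 0 to 8 for siSMYD3#1 and from 0 to 6 for siSMYD3#2. Set against each other at 24 h, the oligonucleotides differed in 0 of the 21 by edgeR, beside 3.36% of all genes. An unadjusted p under 0.05 was held by 5, beside 3513 of all genes, and DESeq2 called 3, beside 1007. At 0 h 0 of 21 were called for either siSMYD3 by edgeR, beside 1.43% and 0.531% of all genes. An unadjusted p under 0.05 was held by 6 and 1, beside 2196 and 1596 of all genes. DESeq2 called 0 for each, beside 523 and 205. In SMYD3 CL5 at 0 h Spry1 was higher than with the vector by 3.60 (SE 0.46, adjusted p = 0.00843), held in 2 of 8 fits with 1 library left out.

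**Figure D3:**
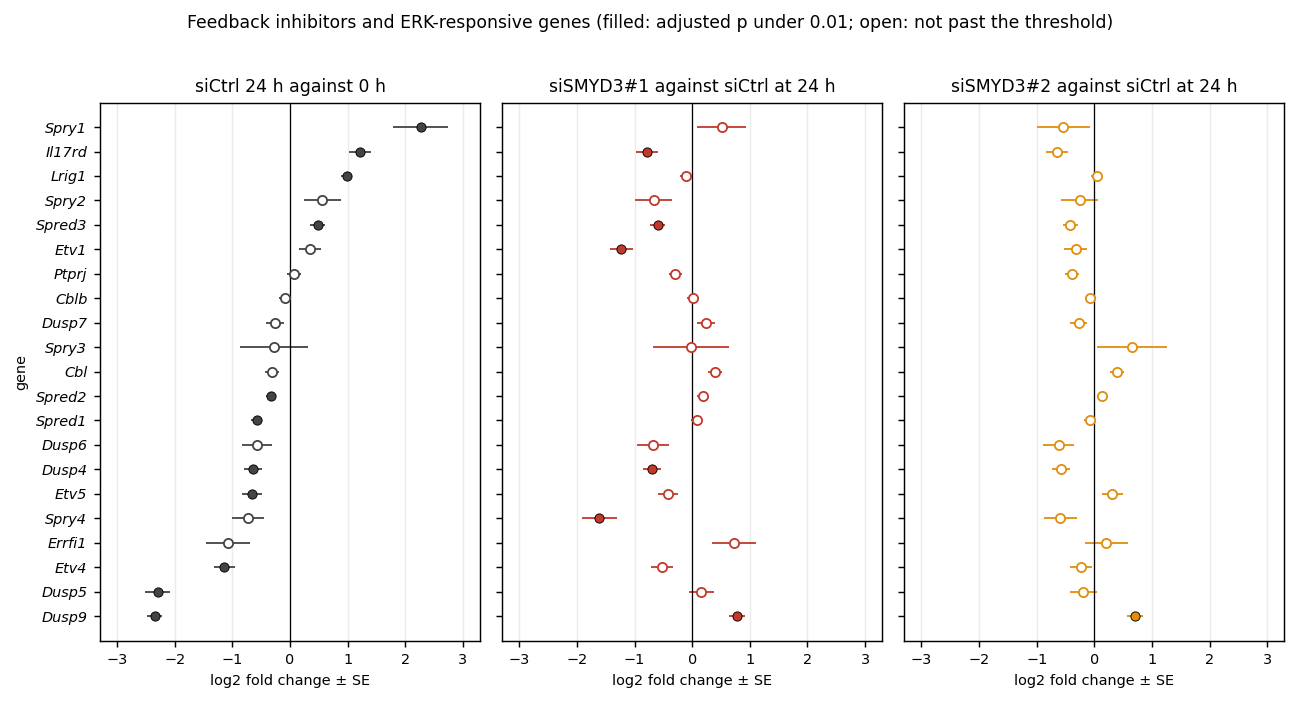
Fitted log2 fold changes with their SE for the 21 feedback inhibitors and ERK-responsive genes, ordered by their change over time in siCtrl (left), beside siSMYD3#1 (middle) and siSMYD3#2 (right) against siCtrl at 24 h. Filled points passed an adjusted p under 0.01. In siCtrl 4 filled points lie above 0 and 7 below, in siSMYD3#1 1 above and 5 below, and in siSMYD3#2 1 above.

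The genes most like each member were found over the 18 siRNA libraries by Pearson correlation of log2(CPM + 1), centred within extraction, over the 10816 genes whose mean was 100 counts or more. For Met they were Prrg4 (0.957), Map3k7 (0.923) and Cacul1 (0.910), and for Hgf Atr (0.962), Nup98 (0.957) and Zzz3 (0.952). For Fgfr1 they were Mfn2 (0.911), Ppp2r2a (0.901) and Med8 (0.895), and for Fgf2 Snx18 (0.819), Inhba (0.792) and Arl5b (0.788). Those of Fgf7 were Gsto1 (0.96), Ubl4a (0.955) and Peg10 (0.953), and those of Fgf21 Higd2a (0.979), Mylip (0.976) and Zfp866 (0.972). The points share their libraries and groups, so these values describe likeness over time and treatment together, and Fgfr2, Fgfr3 and Fgfr4 had too few counts for it.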

How the data were processed

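RNA-Seq libraries (TruSeq Stranded mRNA, paired-end) were made from 26 C2C12 samples. Per the labels and the submitters' processing notes, the authors checked reads with FastQC 0.11.5, aligned them with HISAT2 2.1.0 to GRCm38 and counted them with featureCounts (Subread 1.6.3). The deposited values are raw counts per Ensembl gene. The annotation release and strand setting are not given in the sources used here.

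The 2 experiments were fitted apart with edgeR 4.0.16 under R 4.3.3 (filterByExpr with a minimum count of 10, TMM scaling, robust quasi-likelihood test). The siRNA fit (18 libraries, 15820 genes) had group and extraction terms, and the overexpression fit (8 libraries, 17835 genes) groups alone. Adjusted p-values are Benjamini-Hochberg over all genes tested, called under 0.01. The SE is the log2 fold change over the root of its F value. DESeq2 1.42.0 and other settings were alternatives. GENCODE symbols were found for 54495 of 55341 genes. The scripts were tested on simulated data.

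The genes and lists were chosen with earlier results of these data known. Named were the 9 genes, the defining markers, at most 3 called genes per list and comparison by size, and the 3 genes most like each of the 9 whose mean was 100 counts or more. No 2 libraries had identical counts. Intervals from counting cover counting error only.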

Additional observations from a re-analysis of the deposited data

Results flagged for a closer look

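Tests of a difference between effects picked out 4 results. The siRNAs siSMYD3#1 and siSMYD3#2, set against each other, differed in Fgf7 at 0 h (log2 1.52), in Fgf21 at 0 h (1.98) and in Hgf at 24 h (-0.75), each past an adjusted p of 0.01 by edgeR. In these counts, Smyd3 RNA fell past the threshold with siSMYD3#2 and not with siSMYD3#1, while the study also assayed the knockdown by western blot and qPCR. The change of Met over time in TRIzol libraries was higher than in NucleoSpin libraries by 0.50, in a term added after the data were seen. Extraction method and passage cannot be told apart, and the part of oligonucleotide sequence was not tested. Groups of 3 and 2 libraries are too small for a test of single outlying libraries.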

How the results depend on the processing

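Of 1528 alternative values for 68 member values, 1386 kept their direction and their side of the threshold, 89 lost a call, 52 gained one and 1 turned its direction, Fgf7 in SMYD3 CL5 against vector at 0 h, to -0.30 without SMYD3 CL5 0 h replicate 1, against 1.5 without replicate 2. The counts of the 9 genes called moved as follows, and the cause was not tested. The number of all genes called can move with the setting too and is given here for DESeq2 alone. A moved count is therefore not a result about the 9 genes. Without the extraction term, 2 passed over time in siCtrl, 1 in siSMYD3#1 and 1 in siSMYD3#2, 0 for siSMYD3#1 against siCtrl at 24 h, 0 and 1 for siSMYD3#2 at 0 h and 24 h, and 0 at either time between the oligonucleotides. At an adjusted p under 0.05, 6 passed over time in siSMYD3#2, 2 between the oligonucleotides at 24 h, and 1 and 2 in SMYD3 CL5 against vector at 0 h and 24 h. DESeq2 called 2 and 1 for siSMYD3#2 at 0 h and 24 h, beside 205 and 1045 of all genes (84 and 586 by edgeR). Between the oligonucleotides it called 1 and 2, beside 411 and 1007 (185 and 532 by edgeR). For the change of the siSMYD3#2 effect it called 1, beside 111 (3 by edgeR). In SMYD3 CL5 it called 1 and 2, beside 1041 and 880 (191 and 172 by edgeR). DESeq2 size factors in edgeR left 0 for siSMYD3#1 at 24 h and 0 for siSMYD3#2 at 0 h. With no low-count filter 1 and 2 passed for siSMYD3#1 at 0 h and 24 h, 2 between the oligonucleotides at 24 h, 1 for the change of either siSMYD3 effect, 1 over time with the vector, and 2 and 4 in SMYD3 CL5. In 1 fit of all 26 libraries, 0 passed for siSMYD3#1 at 24 h, 0 for siSMYD3#2 and 0 between the oligonucleotides at either time, and 3 in SMYD3 CL5 at each time. NucleoSpin libraries alone gave 1 for the change of the siSMYD3#2 effect, and called Met over time in all 3 siRNA groups. Leaving out 1 library gave 0 to 1 for siSMYD3#1 at 24 h, 0 to 1 and 1 to 2 for siSMYD3#2, 1 to 2 between the oligonucleotides at each time, and 0 to 4 and 0 to 2 in SMYD3 CL5. With a replicate block, 0 passed for siSMYD3#1 at 24 h, 0 and 1 for siSMYD3#2 at 0 h and 24 h, and 1 between the oligonucleotides at 0 h, and no other count moved by over 1.5 times. Whether same-numbered libraries belong together beyond extraction was not settled. Their deviations from group means correlated at 0.313 to 0.851 over all siRNA libraries, but at -0.102 to 0.177 within NucleoSpin. In the overexpression experiment these correlations ran from -0.0973 to 0.483. With 2 libraries in a group the deviations are equal and opposite, so such values cannot exclude a pairing. Fgfr2 in NucleoSpin siRNA libraries (0 to 6 counts) and Fgf21 in TRIzol siRNA libraries at 0 h (0 to 2 counts) are limited by depth.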
